A study of Homo sapiens with 6 samples.

Results

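The 10 genes described here are the subunits of the transcription factor NF-κB (NFKB1, NFKB2, REL, RELA and RELB) and a set of genes that restrain the pathway or are switched on by it (NFKBIA, NFKBIE, TNFAIP2, TNFAIP3 and BIRC3). They were taken by name, and all 10 were found among the 21676 gene symbols of the deposited count table. All 10 also passed the filter on low counts, which kept 14629 genes. RNA sequencing was done on the 83 cell line, named by the submitters as SACC, an abbreviation in general use for salivary adenoid cystic carcinoma. The groups were 3 libraries of cells with overexpression of ApoD, a secreted lipocalin, and 3 control libraries of the same line. The labels name no promoter, vector, selection or clone for the overexpression, and do not say what the control cells received or whether the libraries came from separate cultures, so the p-values reflect variation among these 6 libraries and that variation may be technical.

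NF-κB subunits bind DNA as pairs that share a Rel homology region. NFKB1 and NFKB2 are made as long precursors that are processed to DNA-binding subunits without an activation domain, whereas RELA, RELB and REL carry one. In resting cells inhibitors of the IκB family hold the pairs in the cytoplasm until the IκB kinase complex marks the inhibitors for destruction. Several genes that NF-κB switches on, among them NFKBIA and TNFAIP3, feed back to end the signal. In epithelia the pathway is known for its part in responses to tumour necrosis factor, interleukin 1 and microbial products.

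The 4 members whose level changed, and NFKBIA, whose promoter is a widely used example of NF-κB feedback, are shown by the 250 bases before their RefSeq gene start (build GRCh38.p14; the build used by the authors is not given in the sources used here). The windows lie at chr4:102501109-102501358 (plus strand) for NFKB1, chr2:60881324-60881573 (plus strand) for REL and chr11:102317234-102317483 (plus strand) for BIRC3. Those of TNFAIP2 and NFKBIA lie at chr14:103123211-103123460 (plus strand) and chr14:35404750-35404999 (minus strand). Each is written along the gene's own strand, and capitals mark every match to the κB consensus, searched on both strands.
NFKB1: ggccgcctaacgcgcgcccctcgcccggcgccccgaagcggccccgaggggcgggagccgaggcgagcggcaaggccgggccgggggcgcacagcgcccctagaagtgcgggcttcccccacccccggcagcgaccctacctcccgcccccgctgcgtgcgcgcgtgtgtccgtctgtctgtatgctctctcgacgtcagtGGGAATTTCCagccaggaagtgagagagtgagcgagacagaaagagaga
REL: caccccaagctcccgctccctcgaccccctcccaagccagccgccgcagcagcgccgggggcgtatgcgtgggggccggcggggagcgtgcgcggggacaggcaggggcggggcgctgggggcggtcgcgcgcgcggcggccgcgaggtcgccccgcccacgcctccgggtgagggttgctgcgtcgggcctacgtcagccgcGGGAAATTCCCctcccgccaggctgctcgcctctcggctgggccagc
BIRC3: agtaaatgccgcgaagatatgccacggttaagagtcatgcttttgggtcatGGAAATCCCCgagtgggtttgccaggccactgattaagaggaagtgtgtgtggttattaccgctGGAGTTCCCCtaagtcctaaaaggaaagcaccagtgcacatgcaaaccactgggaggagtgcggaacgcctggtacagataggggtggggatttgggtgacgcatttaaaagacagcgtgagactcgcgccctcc
TNFAIP2: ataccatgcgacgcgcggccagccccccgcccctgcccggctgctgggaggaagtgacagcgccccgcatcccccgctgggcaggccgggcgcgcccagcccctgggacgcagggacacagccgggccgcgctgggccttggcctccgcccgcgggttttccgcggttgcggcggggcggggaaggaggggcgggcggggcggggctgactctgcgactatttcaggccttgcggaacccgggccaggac
NFKBIA: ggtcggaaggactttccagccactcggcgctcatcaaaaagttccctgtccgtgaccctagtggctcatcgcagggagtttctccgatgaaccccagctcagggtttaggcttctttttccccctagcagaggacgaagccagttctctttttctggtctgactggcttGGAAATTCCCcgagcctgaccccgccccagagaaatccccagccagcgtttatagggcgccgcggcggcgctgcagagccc

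The promoter table held 8 of the 10 members, without RELB and NFKBIE, and 5 of those 8 windows held at least 1 match. Of 27305 promoters of the same length, 1 per symbol, 9.57% held one. The members are NF-κB genes by choice, and in a list of NF-κB target genes 12 of 24 windows (50%) held one. In the other lists of pathway genes 6.25% to 11.8% did. NFKB1 had GGGAATTTCC starting 49 bases before the start. In REL the matches on both strands overlapped within 1 run, with GGGAAATTCC starting 47 bases before the start. NFKBIA and BIRC3 had matches on the other strand, at 81 bases before the start in NFKBIA and at 199 and 135 bases in BIRC3. TNFAIP3, which encodes the ubiquitin-editing enzyme A20, also had matches on the other strand, which read GGAAAGTCCC and GGAAATCCCC on its own strand. They lay 67 and 55 bases before its start. NFKB2, RELA and TNFAIP2 had no match in this window. A match is a stretch of letters and not a measured binding site. Both a member that rose and members that fell were among the genes with a match.

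**Figure D1:**
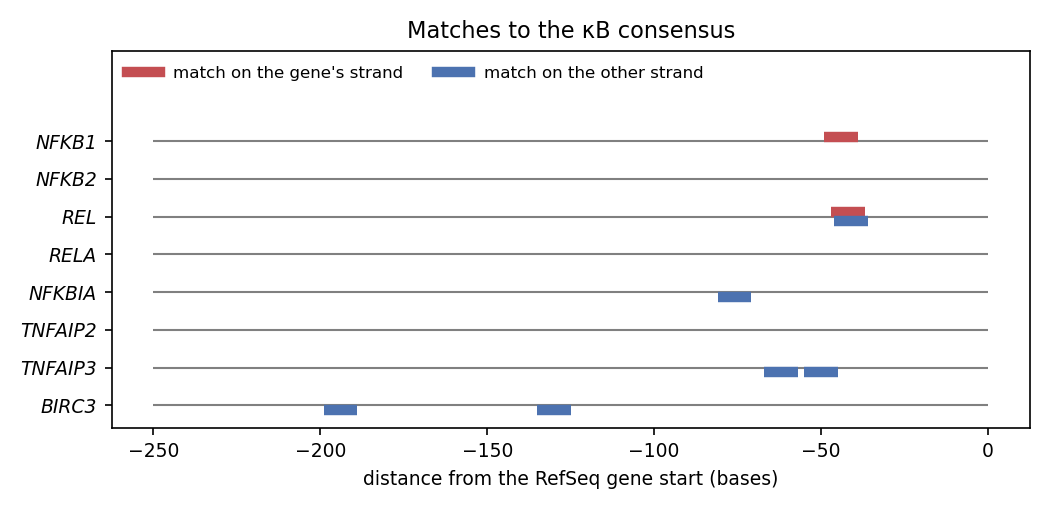
Positions of matches to the κB consensus in the 250 bases before the RefSeq gene start of 8 members, with distance from the start in bases on the x axis; red bars are matches on the gene's strand and blue bars on the other strand. NFKB1, REL, NFKBIA, TNFAIP3 and BIRC3 held matches, and NFKB2, RELA and TNFAIP2 held none.

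Libraries held 37542568 to 40416964 counts. No library was a copy of another: within a group, pairs of libraries differed with a chi-square of 11.6 to 39.5 per degree of freedom. In each group 1 library stood apart: control replicate 1 was at 29.6 and 39.5 from the other controls, which were 11.9 apart, and ApoD overexpression replicate 2 was at 34.7 and 27.2 from the others, which were 11.6 apart. Without control replicate 1 the log2 fold changes of the 4 called members were 1.03 for NFKB1, −0.96 for REL, −1.39 for TNFAIP2 and −1.21 for BIRC3. Without ApoD overexpression replicate 2 they were 0.83, −0.66, −1.37 and −1.08, in the same order, and all 4 passed the test in both fits. APOD, which checks the labels, had 628, 528 and 625 counts with ApoD overexpression, against 9, 8 and 2 in controls. A count per gene does not separate an introduced copy from the cell's own gene. The epithelial markers EPCAM, KRT8, KRT18, KRT5, KRT7 and CDH1 were all present, with a summed level of 3530 to 4033 CPM with ApoD overexpression and 2956 to 4034 CPM in controls, where CPM is counts in a library scaled to 1000000 after TMM normalisation (a trimmed mean of log ratios). Of these 6, 3 passed the edgeR test. CDH1, or E-cadherin, fell to 31.2 ± 3.47 CPM with ApoD overexpression, against 76.1 ± 7.59 CPM in controls (SD, n = 3 each; edgeR adjusted p = 6.61e-06). EPCAM fell, with a log2 fold change of −0.30 ± 0.09 (SE; edgeR adjusted p = 0.0123), and KRT7 rose by 0.48 ± 0.14 on that scale (edgeR adjusted p = 0.0154). In all, 48.8% of the tested genes passed an adjusted p of 0.05 (edgeR), 24.2% higher and 24.6% lower with ApoD overexpression. With so many genes called, a call says that a gene differed between these libraries and does not set it apart from the rest.

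The comparison asks how transcript levels of the members differ between cells with ApoD overexpression and control cells. Of the 10 members NFKB1 rose, REL, TNFAIP2 and BIRC3 fell, and 6 did not pass the threshold. That is 4 of 10 called, against 48.8% of all tested genes, so the share is near the background. The median log2 fold change (ApoD overexpression over control) of the members was −0.07, against −0.02 over all tested genes. The libraries of the groups did not overlap for 6 members, against 58.7% of tested genes. In bulk RNA, fewer cells with a transcript and less of it per cell cannot be told apart.

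**Figure D2:**
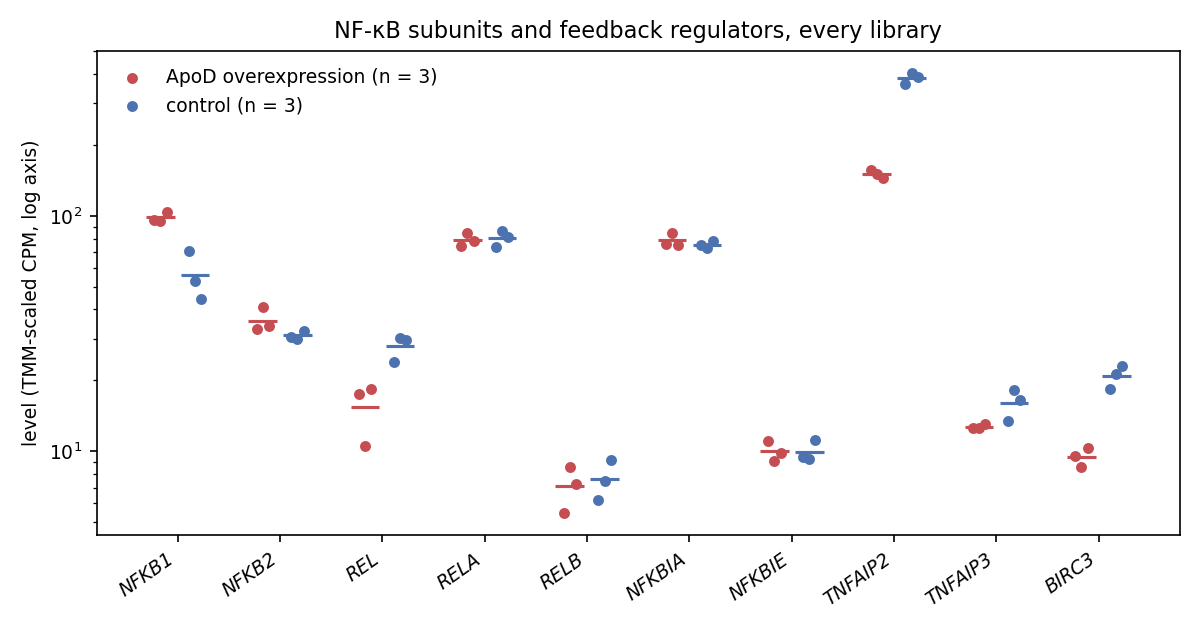
Level of each member in every library, in TMM-scaled CPM on a log axis; red points are ApoD overexpression libraries, blue points control libraries, and bars the means of 3. TNFAIP2, BIRC3 and REL lay lower in every ApoD overexpression library, NFKB1 lay higher, and RELA, NFKBIA, NFKBIE and RELB overlapped.

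NFKB1 encodes the precursor of the subunit that pairs with RELA in the canonical form of NF-κB, and the unprocessed precursor also acts as an inhibitor. It had 95.7, 95.4 and 104 CPM in ApoD overexpression replicates 1 to 3, against 70.9, 53.0 and 44.3 CPM in control replicates 1 to 3. Every ApoD overexpression library lay above every control, and the controls were spread more widely than the ApoD overexpression libraries, with control replicate 1 nearest to them. The means were 98.5 ± 5.12 CPM with ApoD overexpression and 56.1 ± 13.6 CPM in controls (SD, n = 3 each), a log2 fold change of 0.81 ± 0.14 (SE; edgeR adjusted p = 0.000654). Its 95% interval, 0.50 to 1.13 on the log2 scale, includes changes below 1.5-fold, and against a 1.5-fold change the adjusted p was 0.117, in a range over all alternatives of 3.39e-08 to 0.117.

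REL encodes c-Rel, a subunit best known from lymphocytes. It had 17.5, 10.5 and 18.3 CPM with ApoD overexpression, against 24.0, 30.4 and 29.7 CPM in controls. The groups did not overlap, and ApoD overexpression replicate 2 was the lowest of the 6. REL fell to 15.4 ± 4.29 CPM with ApoD overexpression, against 28.1 ± 3.50 CPM in controls (SD, n = 3 each; log2 fold change −0.86 ± 0.18 SE, edgeR adjusted p = 0.00232). Against a 1.5-fold change its adjusted p was 0.136, the highest over the alternatives (lowest 2.85e-06). In the GENCODE 29 annotation 43.3% of the exonic bases of REL are also exonic in AC010733.2, an overlapping transcript on the same strand. Position alone does not tell reads there apart, and how they were counted is not known, as the authors' annotation is not named.

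RELA encodes the main activating subunit. It had 74.1, 84.1 and 77.8 CPM with ApoD overexpression, against 73.5, 86.4 and 81.5 CPM in controls. The ranges overlapped, and the log2 fold change was −0.03 with a 95% interval of −0.24 to 0.18 (edgeR adjusted p = 0.803). A lincRNA overlaps 0.165% of its exonic bases on the other strand. NFKB2 and RELB encode the partners of the non-canonical form. NFKB2 had 32.9, 40.8 and 34.0 CPM with ApoD overexpression, against 30.7, 29.9 and 32.5 CPM in controls. Its libraries did not overlap, but the gap was small and the test was not passed (log2 fold change 0.21, 95% interval −0.03 to 0.45, edgeR adjusted p = 0.132). RELB was the subunit with the fewest counts, with 5.46, 8.56 and 7.28 CPM with ApoD overexpression, against 6.22, 7.47 and 9.15 CPM in controls. Its ranges overlapped, and the 95% interval of its log2 fold change, −0.55 to 0.34, spans 0 on both sides (edgeR adjusted p = 0.702).

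Levels of different genes were compared per length, in FPKM (fragments scaled to gene length and library size). The 5 subunits together had 61.6, 66.1 and 65.0 FPKM in ApoD overexpression replicates 1 to 3, against 59.1, 61.7 and 60.9 FPKM in control replicates 1 to 3. RELA took the largest share of this sum in each library, with the gene lengths of the deposited FPKM, whose annotation is not named. Other lengths were not tried. In CPM, without length, NFKB1 lay above RELA with ApoD overexpression (means 98.5 and 78.7) and below it in controls (56.1 and 80.5). NFKB1 took 33.9%, 30.6% and 34.5% of the summed FPKM with ApoD overexpression, against 27.5%, 19.9% and 17.4% in controls. RELA took 46.1%, 47.2% and 45.1% with ApoD overexpression, against 50.0%, 56.9% and 56.0% in controls, although its own level did not pass a test. The share of REL was 2.04% ± 0.626 with ApoD overexpression and 4.23% ± 0.501 in controls (SD, n = 3 each), also without overlap. NFKB1 reached 0.736, 0.647 and 0.765 of the FPKM of RELA with ApoD overexpression, against 0.550, 0.350 and 0.310 in controls. The shares of NFKB2 (14.2% and 14.1%) and RELB (4.63% and 5.76%) overlapped between ApoD overexpression and control libraries. For NFKB1, RELA and REL the two-sided exact permutation p over libraries was 0.1, the smallest that 3 against 3 allows, and 0.167 after adjustment over the 5 shares, so no share could pass the threshold.

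**Figure D3:**
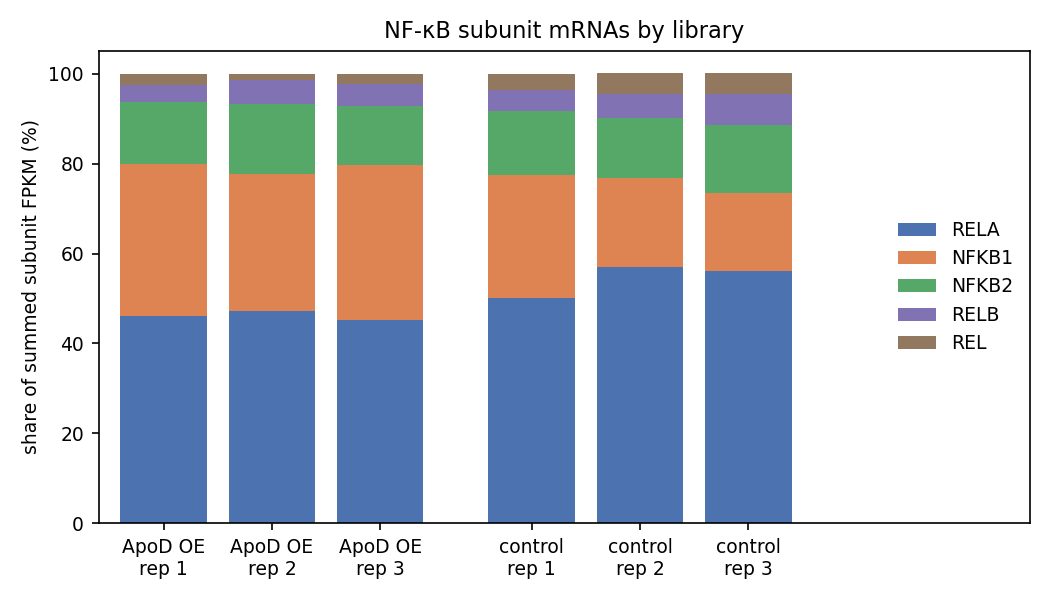
Share of each subunit in the summed FPKM of the 5 subunits (y axis, percent), one bar per library, with ApoD overexpression (OE) replicates on the left and controls on the right. The NFKB1 segment is 30.6% to 34.5% in the ApoD overexpression bars and 17.4% to 27.5% in the control bars.

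The inhibitor genes NFKBIA and NFKBIE did not pass the test. NFKBIA encodes IκBα, which NF-κB itself induces and which removes it from the nucleus. It had 76.0, 84.7 and 75.3 CPM with ApoD overexpression, against 75.4, 73.2 and 77.8 CPM in controls. The ranges overlapped, and the 95% interval of the log2 fold change ran from −0.14 to 0.26 (edgeR adjusted p = 0.613), a narrow range. NFKBIE encodes the related inhibitor IκBε. It had 11.1, 9.12 and 9.78 CPM with ApoD overexpression, against 9.47, 9.23 and 11.2 CPM in controls. The ranges overlapped almost fully, with a 95% interval of −0.32 to 0.33 on the log2 scale (edgeR adjusted p = 0.980).

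TNFAIP3, or A20, takes activating ubiquitin chains off signalling proteins of the pathway. It had 12.5, 12.5 and 13.1 CPM with ApoD overexpression, against 13.5, 18.2 and 16.5 CPM in controls. All controls lay above the ApoD overexpression libraries, but control replicate 1 only just. The log2 fold change was −0.34 ± 0.14 (SE, 95% interval −0.64 to −0.05), and with an edgeR adjusted p of 0.0536 it did not pass. It passed with other choices: without control replicate 1 the edgeR adjusted p was 0.0109, and with scaling by library totals 0.0186. Filtered FPKM, which are also scaled by library totals and so are not a separate choice of scaling, gave 0.0463 to 0.0497 (limma). The range over all alternatives was 0.0109 to 1. An antisense transcript shares 1.88% of its exonic bases, and no source states whether reads were counted by strand.

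BIRC3 encodes cIAP2, a ubiquitin ligase that NF-κB induces and that, with TRAF2 and TRAF3, holds back the kinase of the non-canonical arm. It had 9.54, 8.56 and 10.3 CPM with ApoD overexpression, against 18.4, 21.3 and 22.9 CPM in controls. The groups were well apart, and each was narrow. BIRC3 fell to 9.48 ± 0.889 CPM with ApoD overexpression, against 20.9 ± 2.26 CPM in controls (SD, n = 3 each; log2 fold change −1.14 ± 0.13 SE, edgeR adjusted p = 3.93e-05). Its neighbour and close relative BIRC2, which encodes cIAP1 and can share reads with it, had a log2 fold change of −0.10 ± 0.14 (edgeR adjusted p = 0.573).

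TNFAIP2, first known as a gene induced by tumour necrosis factor, encodes a protein that shapes membrane protrusions. It had the most counts of the members and the largest change. It had 157, 150 and 144 CPM with ApoD overexpression, against 364, 405 and 389 CPM in controls. No library came near the other group. TNFAIP2 fell to 151 ± 6.40 CPM with ApoD overexpression, against 386 ± 21.0 CPM in controls (SD, n = 3 each; log2 fold change −1.36 ± 0.09 SE, edgeR adjusted p = 7.63e-07). TNFAIP2 is also known from endothelial cells, and BIRC3 and REL from lymphocytes. Of 9 fibroblast and endothelial markers 5 were tested and all 5 of these fell (COL1A1, COL3A1, PECAM1, CDH5 and VWF). Of all tested genes 48.8% were called, 24.6% as lower. With ApoD overexpression COL3A1 had 6, 4 and 4 counts and CDH5 had 1, 0 and 0. Both passed the filter on low counts only through the controls, so a test of them could show only a fall. The summed level of the 9 was 11.6 to 15.2 CPM with ApoD overexpression and 36.1 to 43.8 CPM in controls. COL1A2, DCN and LUM were at or near 0. The part of these markers in the change of TNFAIP2 was not tested, and the summed level of PECAM1, CDH5 and VWF was 1.35 to 2.30 CPM with ApoD overexpression and 8.0 to 13.3 CPM in controls. Of 11 immune cell markers 8 had a row in the count table, with a summed level of 40.7 to 42.6 CPM with ApoD overexpression and 22.1 to 37.1 CPM in controls. Nearly all of it came from CD68, which rose, and CSF1R, and no other immune marker, PTPRC and CD14 included, had more than 12 counts in any library.

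**Figure D4:**
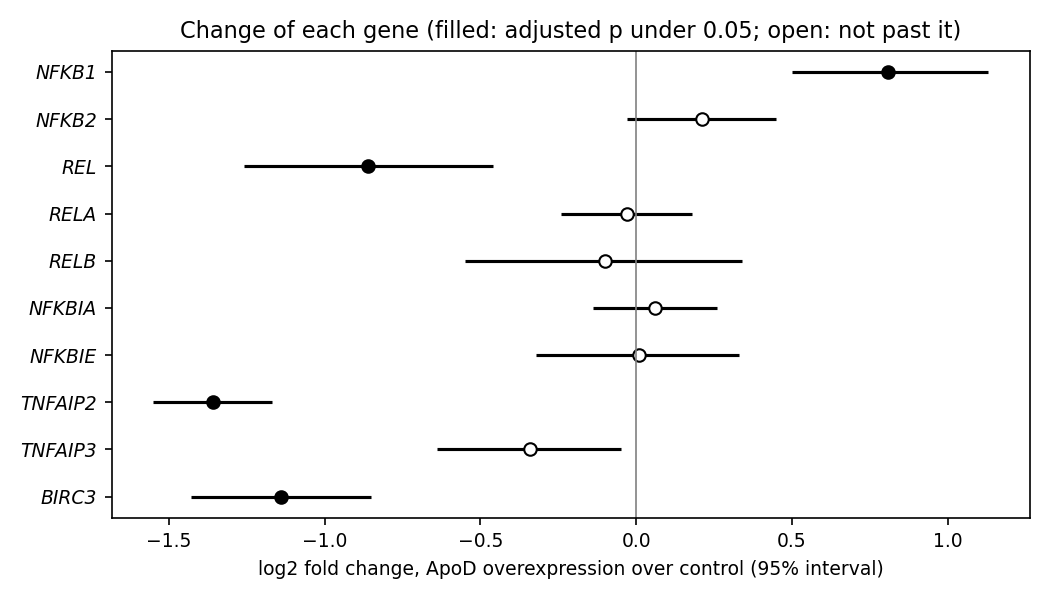
Log2 fold change of each member, ApoD overexpression over control (x axis), with its 95% interval from the edgeR fit as a line; filled points passed an adjusted p of 0.05 and open points did not. NFKB1 lies at 0.81, and REL, BIRC3 and TNFAIP2 lie at −0.86, −1.14 and −1.36.

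The order of the members by FPKM differed between the groups. As for the shares, it rests on gene lengths whose annotation is not named. With ApoD overexpression NFKBIA led, at 46.4 to 51.4 FPKM, followed by RELA and TNFAIP2, whose ranges overlapped, and then by NFKB1 at 20.2 to 22.4 FPKM. In controls TNFAIP2 led, at 70.7 to 79.7 FPKM, ahead of NFKBIA, RELA and NFKB1, none of which overlapped the next. NFKB2, NFKBIE and RELB came after these in both groups. At the low end TNFAIP3 (1.37 to 1.46 FPKM), REL (0.872 to 1.54) and BIRC3 (1.16 to 1.42) overlapped with ApoD overexpression. In controls each gene from NFKBIE down to TNFAIP3 overlapped the next (NFKBIE, RELB, BIRC3, REL and TNFAIP3).

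The genes most like TNFAIP2 over the 6 libraries were GRAMD4, H19 and ALDH3A1, with Pearson's r of log2 CPM of 0.9999, 0.9996 and 0.9995 among the 11505 genes whose mean count reached 100. The likeness rests on the difference between the groups that the 6 points share, and 220 of these genes had an r over 0.99. H19, an imprinted noncoding RNA, fell to 873 ± 95.5 CPM with ApoD overexpression, against 4885 ± 510 CPM in controls (SD, n = 3 each). ALDH3A1, an aldehyde dehydrogenase, and GRAMD4 fell with log2 fold changes of −4.11 ± 0.17 and −1.28 ± 0.10 (SE).

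Other genes of the pathway were taken from lists. Upstream of the IκB kinase complex, 19 of 21 receptors and adaptors were tested, and 6 rose and 5 fell, with a median log2 fold change of 0.04. The share called was 57.9%, against 48.8% of all tested genes. Without control replicate 2, 6 rose and 3 fell, in a fit that called 5454 of all 14909 genes it tested, against 7140 of 14629 with all libraries. TNFRSF12A, the receptor for TWEAK, rose to 248 ± 45.5 CPM with ApoD overexpression, against 75.3 ± 14.7 CPM in controls (SD, n = 3 each; edgeR adjusted p = 7.47e-06). IRAK1, a kinase of the interleukin 1 and Toll-like receptor pathway, rose to 334 ± 44.2 CPM, against 170 ± 19.5 CPM in controls. TLR4, the receptor for bacterial lipopolysaccharide, and TRAF3, which holds back the non-canonical arm, rose, with log2 fold changes of 1.06 ± 0.20 and 0.70 ± 0.09 (SE). IL1RAP, a chain of the interleukin 1 receptor, fell to 34.8 ± 5.33 CPM with ApoD overexpression, against 69.8 ± 21.4 CPM in controls. The adaptors TRAF5 and TRADD fell, with log2 fold changes of −0.62 ± 0.19 and −0.45 ± 0.11 (SE); leaving out control replicate 2 or ApoD overexpression replicate 2 ended the call of TRAF5 (adjusted p = 0.0816 and 0.0562; 0.00331 to 0.639 over the alternatives). CD40 fell by 1.80 ± 0.49 (SE) on the log2 scale, but its level was only 0.253 CPM with ApoD overexpression and 0.897 CPM in controls. With 15, 7 and 7 counts with ApoD overexpression, it passed the filter on low counts only through the controls. The call was lost with the abundance trend removed (edgeR adjusted p = 0.0787) and against a 1.5-fold change (glmTreat adjusted p = 0.0516). Over the 14 alternatives that gave CD40 a value the adjusted p ran from 0.00438 to 0.0787. The tumour necrosis factor receptor TNFRSF1A, picked out after its value was seen, was at 307 ± 8.21 CPM with ApoD overexpression and 285 ± 13.0 CPM in controls (SD, n = 3 each) and did not pass (edgeR adjusted p = 0.308).

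**Figure D5:**
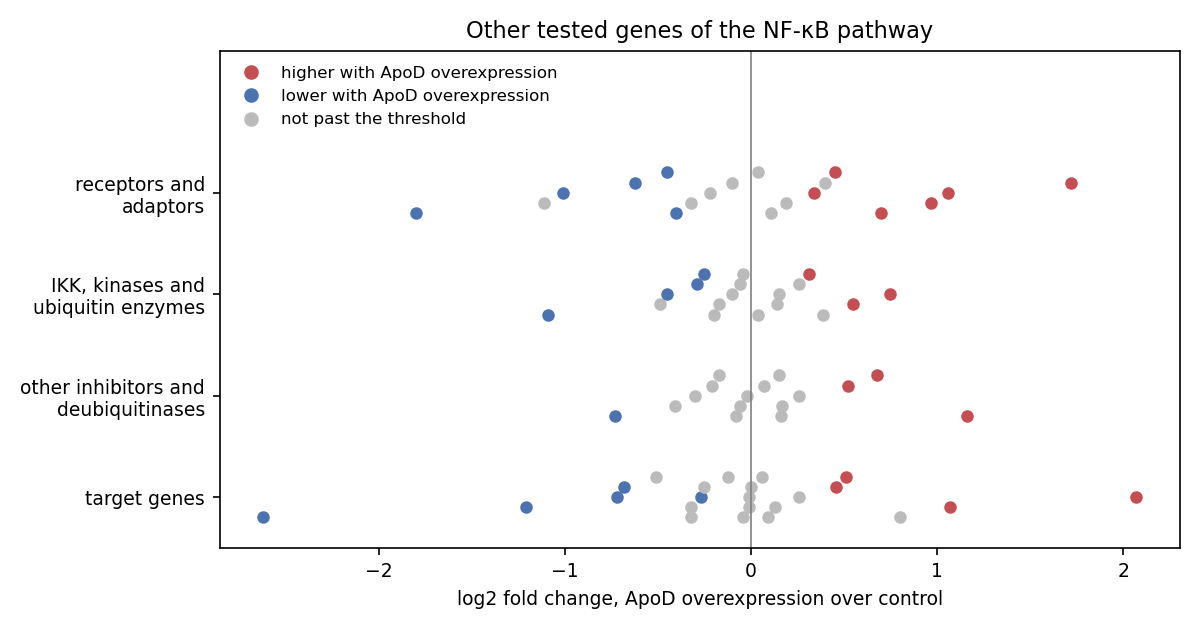
Log2 fold change, ApoD overexpression over control (x axis), of each tested gene in the 4 other pathway lists; red points passed an adjusted p of 0.05 as higher, blue points as lower, and grey points did not pass. Each list holds red and blue points, and the list medians lie between −0.05 and 0.04.

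Of 18 kinases and ubiquitin enzymes, all tested, 3 rose and 4 fell (median log2 fold change −0.05), and 38.9% were called, against 48.8% of all tested genes. Without control replicate 2, 2 rose and 2 fell, and without either control replicate 3 or ApoD overexpression replicate 3, 3 rose and 2 fell. Calls over the whole table were fewer too. These fits called, in the same order, 5454 of 14909, 6036 of 14905 and 6094 of 15109 genes, against 7140 of 14629 with all libraries. MAP3K14, the kinase that starts the non-canonical arm (NIK), rose to 83.1 ± 9.47 CPM with ApoD overexpression, against 49.4 ± 4.46 CPM in controls (SD, n = 3 each; edgeR adjusted p = 0.000191). The catalytic subunits of the IκB kinase complex were called in opposite directions, and the difference between them was not tested. CHUK, or IKKα, rose by 0.31 ± 0.12 (SE) on the log2 scale (edgeR adjusted p = 0.0427), and IKBKB, or IKKβ, fell with a change of −0.45 ± 0.11 (edgeR adjusted p = 0.00367). The call of CHUK was lost under 11 of 16 alternatives, among them library totals (adjusted p = 0.228) and leaving out control replicate 1, control replicate 2, ApoD overexpression replicate 1 or ApoD overexpression replicate 2 (0.0522 to 0.170), in a range over all alternatives of 0.00785 to 1. MAP3K8, a kinase that the NFKB1 precursor binds, fell to 3.08 ± 0.644 CPM with ApoD overexpression, against 6.52 ± 0.300 CPM in controls. UBE2N, a ubiquitin-conjugating enzyme, rose by 0.55 ± 0.10 (SE). TAB3 and RBCK1 fell with changes of −0.29 ± 0.11 and −0.25 ± 0.09, and each lost its call under 8 of 16 alternatives. Leaving out 1 library ended the call of TAB3 for control replicates 2 and 3 and ApoD overexpression replicates 2 and 3 (adjusted p 0.0845 to 0.125), and that of RBCK1 for control replicates 2 and 3 and ApoD overexpression replicates 1 and 3 (0.0686 to 0.260). Over all alternatives the adjusted p ran from 0.0137 to 1 for TAB3 and from 0.00455 to 1 for RBCK1.

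Of 17 other inhibitors and deubiquitinases 16 were tested, 3 rose and 1 fell (median log2 fold change 0.03), and 25% were called, against 48.8% of all tested genes. Without ApoD overexpression replicate 1, 3 rose and 2 fell, in a fit that called 6879 of all 15110 genes it tested. NFKBIB, which encodes IκBβ, rose to 19.7 ± 5.17 CPM with ApoD overexpression, against 8.84 ± 0.334 CPM in controls (SD, n = 3 each; log2 fold change 1.16 ± 0.17 SE, edgeR adjusted p = 0.000204). Both N4BP1, an inhibitor, and NKRF, a repressor, rose by 0.68 ± 0.10 and 0.52 ± 0.10 (SE). BCL3, a nuclear IκB protein, fell to 22.2 ± 1.26 CPM, against 36.8 ± 3.45 CPM in controls. Removing the abundance trend, scaling by library totals or using filtered FPKM gave 3 higher and 4 lower, and filtered FPKM tested only 14 of the list. The low share of 25% therefore depended on the choice of fit.

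Of 30 target genes 23 were tested, 4 rose and 5 fell (median log2 fold change −0.01), and 39.1% were called, against 48.8% of all tested genes. Without control replicate 1, 4 rose and 8 fell, with a median of −0.11. That fit called 7519 of all 15007 genes it tested, against 7140 of 14629 with all libraries. PTX3, a secreted pattern recognition protein, and the cytokine IL6 rose by 2.07 ± 0.29 and 1.07 ± 0.22 (SE). PTX3 had 7.26 ± 0.898 CPM with ApoD overexpression and 1.73 ± 0.716 CPM in controls (SD, n = 3 each). The cytokine LIF and the surface protein CD83 rose by 0.51 ± 0.10 and 0.46 ± 0.12. PTGS2, the inducible cyclooxygenase, fell to 2.96 ± 0.671 CPM, against 6.86 ± 1.97 CPM in controls. The stress gene GADD45B and CFLAR, an inhibitor of caspase activation, fell, with changes of −0.72 ± 0.12 and −0.68 ± 0.12. The chemokine CCL20 fell, with only 4, 2 and 2 counts with ApoD overexpression and 19, 16 and 20 in controls. It passed the filter on low counts only through the controls, so the test could show only a fall. On the log2(FPKM + 1) scale, which understates changes of low genes, the changes of PTX3, IL6 and PTGS2 were 1.28, 0.50 and −0.65. TNF itself had at most 2 counts in any library and was not tested. ICAM1, SOD2 and IRF1, picked out after their values were seen, did not pass, with log2 fold changes of −0.04 ± 0.10, 0.06 ± 0.11 and −0.01 ± 0.09 (SE).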

How the data were processed

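The authors deposited raw read counts per gene symbol for 6 libraries, per the file headers, made from 1.3 µg of total RNA with a SMARTER mRNA-Seq kit, per the labels' protocols. No source used here names the aligner, the counter, its strand setting, the annotation or the build. A deposited FPKM table held 108650 values above 0, each equal to the authors' count divided by the library total and a whole-number gene length (relative tolerance 1e-06).

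Counts were tested with the quasi-likelihood test of edgeR 4.0.16 (R 4.3.3), with TMM scaling, filterByExpr at a minimum count of 10 and two-sided p-values adjusted by Benjamini-Hochberg over 14629 genes. SE and 95% intervals come from the F statistic. Totals of 37542568 to 40416964 counts make counting error minor for well-covered genes. On simulated counts of 14629 genes, with 200 changed, the test recovered 49.3% of 1.5-fold, 67.2% of 2-fold and 93.9% of 4-fold changes, with 9 false calls. In the data 7140 genes were called, far more than were changed in the simulation, so these figures do not give the recovery or false calls of this comparison.

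The members and lists were chosen with earlier results of these data known. Named were the 10 members, APOD, up to 8 called genes per other list by size of change, and the 3 genes most like the member with the largest change, which was also the one with the most counts. The alternatives were DESeq2 size factors, library totals, the DESeq2 1.42.0 Wald test, no filter, a replicate block, glmTreat against 1.5-fold, limma 3.58.1 on log2(FPKM + 1) or log2(FPKM + 0.1) with at least 1 FPKM in 3 libraries, the first also unfiltered, removal of the abundance trend, and leaving out each library. Deviations of same-numbered libraries correlated at −0.115 to −0.006, so the numbers were not taken as pairs. Promoter sequences are from RefSeq (GRCh38.p14) and exon overlaps from GENCODE 29, matched by symbol.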

Additional observations from a re-analysis of the deposited data

How the results depend on the processing

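The calls of TNFAIP2 and BIRC3 and their direction held under all 16 alternatives, with log2 fold changes of −1.56 to −1.31 and −1.26 to −0.83. NFKB1 (0.68 to 1.03) and REL (−0.99 to −0.64) held under 15, all but the test against a 1.5-fold change. Against that change 2 of the 10 members were called, with 3 receptors and adaptors, 1 kinase or ubiquitin enzyme, 1 other inhibitor, 4 targets and 1975 of all genes. With 1 library left out 4 to 5 members and 5454 to 7519 genes were called. With the replicate block 4 kinases and ubiquitin enzymes were called (2 higher, 2 lower), against 7, and 4 members as in the unblocked fit. Leaving out libraries gave 4 to 7 kinases and ubiquitin enzymes. The lowest was without control replicate 2, the fit that also called the fewest genes, 5454. Of the other inhibitors 7 were called, against 4 of 16, with library totals and the abundance trend removed (of 16 tested) and with filtered FPKM at either pseudocount (of 14 tested). Over all genes library totals called 7013 and the trend removed 6617, of 14629, and filtered FPKM 5809 to 5839 of 11215. Same-numbered libraries did not deviate together (correlations −0.115 to −0.006). The labels do not say whether they were made together, and values from 3 libraries per group cannot settle it. The block called 6348 genes, against 7140. With library totals 36.8% of the called genes were higher, against 49.6% with TMM, and the median log2 fold change of all genes was −0.13, against −0.02.

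Signs turned only for members that did not pass in any of these fits. RELA ran from −0.09 to 0.04 with 1 library left out and was above 0 without control replicate 2 or ApoD overexpression replicate 1. RELB was 0.12 with the abundance trend removed and −0.27 to 0.08 with 1 library left out, above 0 without control replicate 3 or ApoD overexpression replicate 1. NFKBIA was −0.06 with library totals and on FPKM, −0.08 with the trend removed and −0.01 to 0.11 with 1 library left out, below 0 without ApoD overexpression replicate 2. NFKBIE was −0.11 with library totals and log2(FPKM + 0.1), −0.09 with log2(FPKM + 1) at either filter, and −0.05 to 0.11 with 1 library left out, below 0 without control replicate 1 or 2 or ApoD overexpression replicate 1. The difference in the share of NFKB2, 0.0601 percentage points, was −0.581 to 0.524 with 1 library left out; taking shares from CPM per length gave the values from FPKM by construction. Of 484 values for 31 other named genes 438 kept their call, 46 lost it and 0 turned. The cause of these shifts was not tested. RELB had 215 to 379 counts, and its log2 fold change has an SE of 0.20.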
